A study of Oryza sativa with 6 samples.

Results

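In the rice genome, 1546 regions carried a called peak of acetylated histone H3 lysine 9 (H3K9ac) in all 4 libraries from leaves infested with the fall armyworm, Spodoptera frugiperda, and in exactly 1 of the 2 libraries from uninfested leaves. They are called single-control regions here. They were found by merging the peak intervals of the 6 deposited lists wherever intervals overlapped by at least 1 bp on the 12 nuclear chromosomes, and they made up 8.85% of the 17468 merged regions. They were 24.7% of the 6271 regions that all 4 infested lists called. They were thus chosen by the calls of all 6 lists, so the counts, folds and control coverages that follow describe the choice and are given without a test.

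The libraries came from leaf nuclei of rice (Oryza sativa) seedlings 20 days old and were prepared by CUT&Tag, where antibody bound to the mark guides a transposase to cut and tag nearby DNA. Leaves had been infested for 12 h (2 libraries), infested for 3 h (2 libraries) or left uninfested as the control (2 libraries). Leaf is the tissue in the labels of each sample, which are followed here, although the series' design text names whole seedlings instead. All groups were seedlings grown in soil in a greenhouse, and the same antibody against H3K9ac was used throughout. The labels name no cultivar and do not say whether replicates came from separate plants, so the spread between replicates may be technical.

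Histone acetyltransferases place acetyl groups on lysine 9 of histone H3, and histone deacetylases take them off. The mark is found mainly just downstream of the starts of active genes in plants and animals, where it forms short peaks. In Arabidopsis, repressors of the jasmonate pathway, which plants use against chewing insects, act in part by recruiting histone deacetylases. A call in a peak list means that coverage at a summit passed the caller's threshold, and a missing call does not mean that the mark was absent. Whether more nuclei carried the mark at a region or each nucleus carried more of it cannot be told apart in such libraries.

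Lists differed in length and depth. The authors listed 12548 and 12167 peaks at 12 h, 11738 and 14010 in the 3 h lists, and 5150 and 5644 in control, of which 48 to 71 per list lay outside the nuclear chromosomes. The summit coverage of each peak, in fragments, was recovered from the deposited fold and −log10 p. The lowest coverage that was called was 6 fragments in both 12 h lists, 8 in both 3 h lists, 9 in control replicate 1 and 8 in control replicate 2. Where the local background was lowest, a control library therefore needed as many fragments as a 3 h library, or 1 more, for a call. It needed more than a 12 h library there. Regions with a higher local background needed more fragments. None of the 23 merged regions on the chloroplast, 42 on the mitochondrion and 13 on unplaced scaffolds had the pattern of 4 infested calls and 1 control call.

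**Figure D1:**
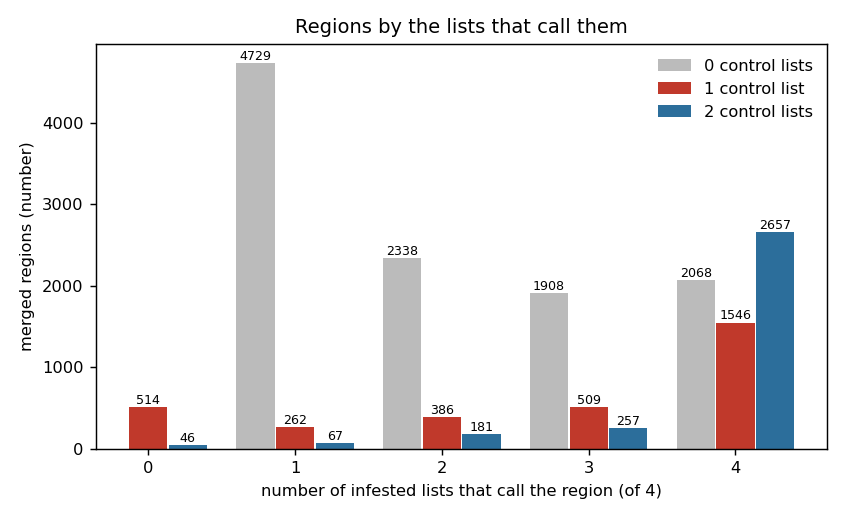
Number of merged regions (vertical axis) by how many of the 4 infested lists call them (horizontal axis), with bars for regions called in 0, 1 or 2 control lists. The 1546 single-control regions are the middle bar at 4 infested lists, between 2068 regions called in no control list and 2657 called in both.

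The single-control regions stood between the 2657 regions called in both control lists and the 2068 regions called in the infested lists alone. Among regions with exactly 1 control call, 1671 others were called in fewer than 4 infested lists. Of these, 509 were called in 3 infested lists and so missed the rule by 1 infested call. The missing list was 12 h replicate 1 for 120 of the 509, 12 h replicate 2 for 156, 3 h replicate 1 for 153 and 3 h replicate 2 for 80. The 3 h replicate 2 list, the longest, was the one that missed fewest.

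The control call came from control replicate 2 in 959 of the 1546 regions (62.0%; exact Clopper-Pearson 95% interval 59.6 to 64.5%, counting error only) and from control replicate 1 in 587 (38.0%; 35.5 to 40.4%). These intervals treat the regions as independent draws and do not cover the spread between libraries. Control replicate 2 had the longer list, with 5074 nuclear regions against 4559 in control replicate 1. Control replicate 2 held 45.9% of the 514 regions called in 1 control list and no infested list. It held 52.7% of the 262 regions that also had 1 infested call, 59.8% of the 386 with 2 and 59.3% of the 509 with 3, so its share was lowest where no infested list called the region. The 959 regions were 18.9% of the regions of the control replicate 2 list, and the 587 were 12.9% of those of control replicate 1. Both control replicates were uninfested and each share rests on 1 library. What set the split between them was not tested.

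The strongest single-control regions showed folds of enrichment over the local background that were high in every infested list. The fold is the authors' ratio at the highest summit of a region in its own list. It is not scaled between libraries of different depth, so a lower control fold was not tested as less acetylation. Positions are on build IRGSP-1.0, and the genes at them were not analysed here. Among regions called in control replicate 2, chromosome 12 from 24924799 to 24925729 showed folds of 7.63 and 9.74 in the 12 h lists, 7.31 and 7.43 in the 3 h lists, and 3.41 in control. Its summits held 34 and 41 fragments at 12 h, 42 and 47 in the 3 h lists, and 14 in control. All 4 infested values lay far above the only control value there, although the control call was 910 bp wide against 738 and 754 bp in the 12 h lists and 594 and 774 bp in the 3 h lists.

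A second region on that chromosome, 15469773 to 15470586, behaved differently. Its folds were 7.25 and 7.65 in the 12 h lists, 7.85 and 8.58 in the 3 h lists, and 6.53 in control replicate 2, where the summit held 22 fragments. Its −log10 q in that control list was 10.7, well inside the threshold, while control replicate 1 made no call. The controls thus differed from each other at this region by a clear call and none. Chromosome 3 from 24341282 to 24342265 showed folds of 6.47 and 7.29 in the 12 h lists, 7.61 and 6.47 in the 3 h lists, and 4.51 in control replicate 2. Chromosome 8 from 4537717 to 4538842 showed folds of 6.83 and 6.99 in the 12 h lists, 6.31 and 7.60 in the 3 h lists, and 3.27 in control replicate 2, with a control summit of 11 fragments. Chromosome 4 from 8686519 to 8687295 had 7.33 and 6.46 in the 12 h lists, 6.08 and 8.14 in the 3 h lists, and 3.99 in control replicate 2. The infested folds did not overlap the control fold in these regions, which the choice by a high lowest infested fold favours.

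Over all single-control regions the infested and control folds overlapped about as often as not. The lowest infested fold had a median of 3.59 and the control fold a median of 3.60. The first is the lowest of 4 values and so is low by its making. Median folds in the single infested lists were 4.08 to 4.42. The control fold lay below all 4 infested folds in 737 of the 1546 regions (47.7%), within their range in 732 (47.3%) and above all 4 in 77 (4.98%). Where control replicate 1 made the call, it lay below in 304 of 587 (51.8%), against 51.4% of all regions called in the 4 infested lists and that control list, and above in 4.60%, against 6.6%. Where control replicate 2 made the call, it lay below in 433 of 959 (45.2%), against 41.8%, and above in 5.21%, against 8.96%. The calls that chose the regions rest on the same coverage as these folds, so nothing is read from the shares.

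Among regions called in control replicate 1, chromosome 6 from 14004749 to 14005829 led, and its folds were 7.71 and 7.05 in the 12 h lists, 6.76 and 6.24 in the 3 h lists, and 3.50 in control. Its summits held 20 and 21 fragments at 12 h, 28 and 28 in the 3 h lists, and 11 in control. Chromosome 11 from 13618561 to 13619324 showed folds of 6.21 and 6.55 in the 12 h lists, 6.16 and 6.63 in the 3 h lists, and 4.07 in control. Both had control values below every infested value. Chromosome 8 from 15114877 to 15115938 followed with 5.80 and 5.70 in the 12 h lists, 5.93 and 5.73 in the 3 h lists, and 3.50 in control. Chromosome 4 from 8764612 to 8765501 had 5.63 and 6.18 in the 12 h lists, 5.47 and 5.56 in the 3 h lists, and 3.79 in control. At chromosome 2 from 16552230 to 16553025 the groups overlapped. Its folds were 6.37 and 5.63 in the 12 h lists, 6.77 and 7.30 in the 3 h lists, and 5.97 in control, and its control summit of 21 fragments exceeded the 19 and 17 of the 12 h summits.

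**Figure D2:**
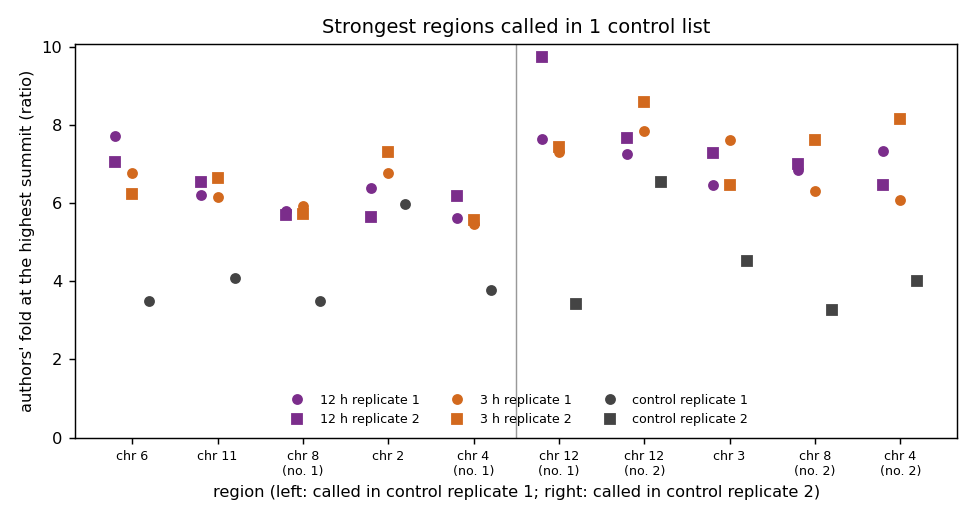
The authors' fold at the highest summit (vertical axis, a ratio) in each list that calls the region, for the 5 single-control regions per control replicate with the highest lowest infested fold (horizontal axis, by chromosome). The choice favours regions whose control fold lies below all 4 infested folds, as in 9 of the 10 shown against 47.7% of all single-control regions; on chromosome 2 it is 5.97, above the 12 h replicate 2 value of 5.63.

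Some control calls were among the strong ones of their list. The highest control folds of all single-control regions were all in control replicate 2. Chromosome 10 from 1556826 to 1557835 showed folds of 7.66 and 6.49 in the 12 h lists, 5.06 and 5.20 in the 3 h lists, and 7.46 in control. Chromosome 9 held the next 3. At 17171848 to 17172731 the folds were 5.22 and 5.35 in the 12 h lists, 7.04 and 4.22 in the 3 h lists, and 6.99 in control. At 8404926 to 8406591 they were 6.82 and 6.64 in the 12 h lists, 5.23 and 6.35 in the 3 h lists, and 6.66 in control. At 14292309 to 14293276 the control fold of 6.66 was above the 5.94 and 4.84 in the 12 h lists and the 5.99 and 5.43 in the 3 h lists. These 4 regions show infested and control folds that overlap or run the other way, with no call in control replicate 1. Control calls that ranked high in their list were few, as 10 of the 959 regions (1.04%) reached the top 10% of the control replicate 2 list by −log10 q and 1 of the 587 (0.170%) reached that of control replicate 1.

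Most control calls were weak within their list. The median single-control region was above the middle of each infested list by −log10 q, at percentiles 64.4 and 62.7 in the 12 h lists and 62.1 and 66.0 in the 3 h lists, but at percentile 32.3 of the control replicate 1 list and 37.7 of the control replicate 2 list. Regions called in all 6 lists stood at 80.6 and 80.3 in the 12 h lists, 80.0 and 82.5 in the 3 h lists, and 62.3 and 66.4 in the control lists. Regions called in the infested lists alone had medians of 52.1 and 52.8 in the 12 h lists and 47.1 and 53.6 in the 3 h lists. When only regions shared by the 4 infested lists and a given control list were ranked by fold, the medians came close together. Over the 3616 regions shared with control replicate 2, the 959 single-control regions had a median percentile of 42.2 and 42.9 in the 12 h lists, 40.6 and 41.4 in the 3 h lists, and 36.3 in control replicate 2. Over the 3244 shared with control replicate 1, the 587 had 38.6 and 37.2 in the 12 h lists, 38.3 and 35.2 in the 3 h lists, and 35.0 in control replicate 1. By fold, among regions that both kinds of list called, the median single-control region thus lay below the middle of the infested and control lists alike. This ranking differs from that by −log10 q in both the measure and the set of regions.

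Summit coverage, which is not scaled for depth, was likewise lower in the control lists than in the infested lists. At single-control regions the median coverage was 15 fragments in both 12 h lists, 17 and 18 in the 3 h lists, 14 in control replicate 1 and 13 in control replicate 2. A count of 13 has an exact Poisson 95% interval of 6.92 to 22.2 and a count of 15 of 8.40 to 24.7. These intervals are for 1 count at 1 region and not for a median over regions. They also leave out the threshold that each call had to pass. At a single region, counts near these medians therefore do not separate the libraries. At regions called in all 6 lists the medians were 20 and 20 in the 12 h lists, 22 and 24 in the 3 h lists, and 18 in both controls. In control replicate 2, 254 of the 959 regions (26.5%) were within 3 fragments of the lowest coverage called, against 8.92% of regions called in all 6 lists. In control replicate 1 it was 180 of the 587 (30.7%), against 10.2%. In the infested lists 4.46 to 9.77% of single-control regions were that close to the lowest coverage called. That lowest coverage holds where the local background was lowest in the list. The background was above that level at 88.6% of single-control calls in control replicate 1 and 89.9% in control replicate 2. At regions called in all 6 lists it was so in 95.9% and 97.1%. The shares thus do not measure the distance to the limit of each region. The lists give no coverage for the control replicate that made no call.

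**Figure D3:**
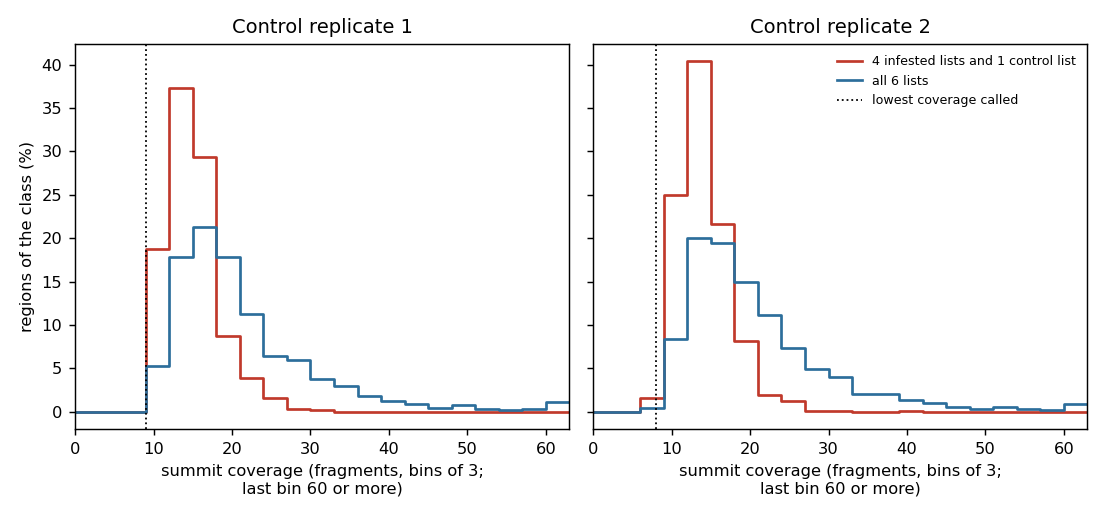
Share of regions (vertical axis, %) by summit coverage in fragments (horizontal axis, bins of 3) in each control list, for single-control regions and for regions called in all 6 lists; the dotted line is the lowest coverage called. Single-control regions had medians of 14 fragments in control replicate 1 and 13 in control replicate 2, against 18 for regions called in all 6 lists. The line holds where the local background was lowest, and regions with a higher background needed more fragments.

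The regions nearest the edge of the rule were picked by their control −log10 q, which places them at the threshold on both sides. Just inside, chromosome 2 from 25583901 to 25584969 had a −log10 q of 1.30 in control replicate 1, with 10 fragments at the summit. Chromosome 1 from 6813823 to 6814937 had a −log10 q of 1.32 in control replicate 2, and chromosome 3 from 14517695 to 14518457 had 1.33. Just outside, with calls in both controls, chromosome 7 from 23106072 to 23107481 had control values of 1.31 and 3.14. Chromosome 2 from 32166034 to 32167437 had 1.31 and 3.40, and chromosome 4 from 20548804 to 20549798 had 1.31 and 3.55. Among the regions with no control call, those with the highest lowest infested fold are given, since they have no control value to rank by. There the region of chromosome 10 starting at 798473 had −log10 q values of 18.4 and 14.3 in the 12 h lists and 14.9 and 10.8 in the 3 h lists. The region of chromosome 1 starting at 41854041 had 13.2 and 23.2 in the 12 h lists and 12.7 and 12.7 in the 3 h lists, and that of chromosome 2 starting at 2159995 had 9.97 and 10.4 in the 12 h lists and 12.0 and 11.6 in the 3 h lists. Their lowest infested folds were 6.42, 6.42 and 6.45. By the same measure the highest single-control regions had 7.31, 7.25 and 6.47.

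Fold and width placed the single-control regions in the middle in every infested library. Their median fold was 4.42 and 4.40 in the 12 h lists, 4.10 and 4.08 in the 3 h lists, and 3.49 and 3.66 in control. Regions called in all 6 lists had 4.80 and 4.75 in the 12 h lists, 4.44 and 4.42 in the 3 h lists, and 3.86 and 4.06 in control. Regions called in the infested lists alone had 4.14 and 4.14 in the 12 h lists, and 3.78 and 3.84 in the 3 h lists. The same order held for called width, with medians of 716 and 744.5 bp in the 12 h lists, 688.5 and 722 bp in the 3 h lists, and 475 and 513 bp in control for the single-control regions. The spread within each class was wide, as the middle 50% of single-control folds ran from 3.82 to 5.22 in 12 h replicate 1 and from 3.30 to 4.13 in control replicate 2. Regions with a call in control replicate 2 had slightly higher median folds in each infested list than those with a call in control replicate 1, at 4.48 and 4.49 against 4.38 and 4.31 in the 12 h lists, and at 4.11 and 4.14 against 4.06 and 3.97 in the 3 h lists.

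**Figure D4:**
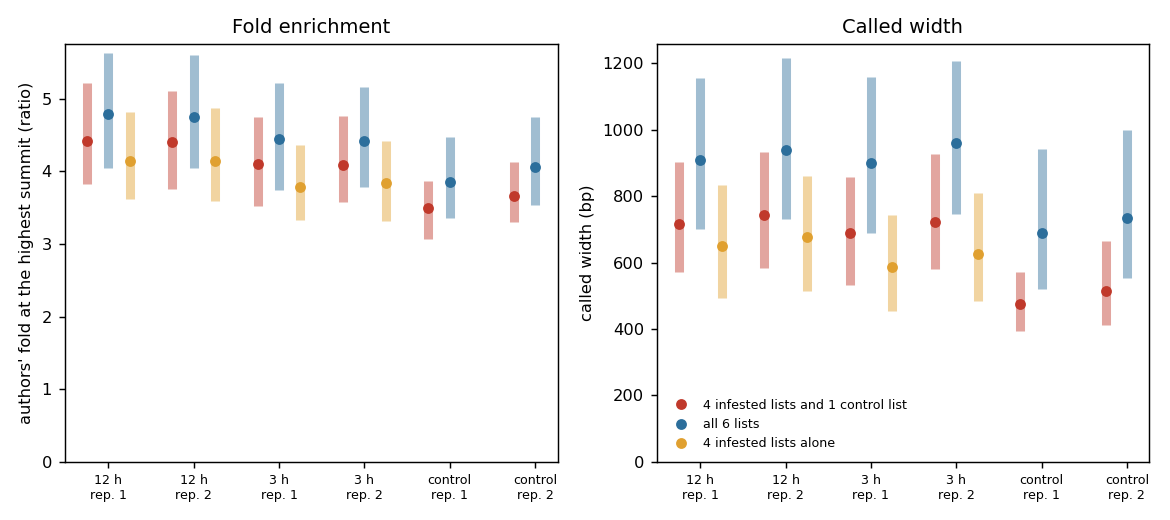
Median (points) and middle 50% (bars) of the authors' fold (left, a ratio) and of the called width (right, bp) in each library, for regions called in 4 infested lists and 1 control list, in all 6 lists and in the 4 infested lists alone. Single-control regions lie between the other classes in each infested library, with medians of 4.42 and 4.40 in the 12 h lists and 4.10 and 4.08 in the 3 h lists.

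The control call was often a narrower peak at the same place. It was narrower than all 4 infested calls in 856 regions (55.4%) and wider than all 4 in 62 (4.01%). Narrower control calls were about as frequent over all regions called in the 4 infested lists and the same control list, at 57.4% of single-control regions against 56.3% for control replicate 1 and 54.1% against 50.7% for control replicate 2. Wider control calls made up 6.29% and 7.61% of all such regions. Its width was a median 0.719 times the median infested width. At regions called in all 6 lists the ratio was 0.834 for control replicate 2 and 0.784 for control replicate 1. Of the 1546 control calls, 1250 (80.9%) lay wholly inside the union of the infested calls, and 1449 (93.7%) overlapped the stretch that all 4 infested lists shared. The control summit fell in that shared stretch in 1169 regions (75.6%). At regions called in all 6 lists the shares were 87.3% for control replicate 2 and 86.3% for control replicate 1. The shared stretch was longer there, at a median 659 bp against 456 bp, so the shares are not like for like. In 97 single-control regions the control call did not touch the shared stretch. In 33 of these no such stretch existed because the infested calls only chained together. The median distance between an infested and a control summit was 121 to 142 bp over the 8 pairs of lists. It was 118 to 133 bp at regions called in all 6 lists. Between 2 infested summits at single-control regions it was 106 to 114.5 bp for replicates and 107 to 112 bp between 12 h and 3 h.

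Single-control regions were mostly simple peaks. In 919 of them (59.4%) every list that called the region gave it 1 summit, against 39.0% of regions called in all 6 lists and 69.0% of regions called in the infested lists alone. A region called in more lists has more chances of a second summit, and over the 4 infested lists alone the shares were 60.3%, 43.0% and 69.0%. The infested lists gave 79.0 to 87.1% of single-control regions 1 summit, and the control lists 96.0 to 96.9%. Several summits in all 4 infested lists were found in 38 regions (2.46%). The most complex were on chromosome 4, where the region from 20130616 to 20132546 had 15 summits summed over its 5 lists and folds of 3.79 and 4.21 in the 12 h lists, 4.01 and 3.56 in the 3 h lists, and 3.68 in control replicate 2. The region from 23876445 to 23879044 also had 15 summits and, at 2600 bp, was the widest. It was called over 1438 and 1821 bp in the 12 h lists, 2363 and 2600 bp in the 3 h lists, and 476 bp in control replicate 2, so a narrow control peak marked part of a broad infested domain.

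Of the other wide regions, those on chromosomes 1 and 12 had the same shape, and that on chromosome 8 did not. Chromosome 1 from 37269625 to 37272110 was called over 2343 and 2361 bp in the 12 h lists, 2373 and 2091 bp in the 3 h lists, and 627 bp in control replicate 2. Chromosome 8 from 4458503 to 4460764 was called over 1728 and 999 bp in the 12 h lists, 470 and 1247 bp in the 3 h lists, and 559 bp in control replicate 1. There the control width fell within the infested range. Chromosome 12 from 20066176 to 20068424 was called over 1339 and 1666 bp in the 12 h lists, 1092 and 1985 bp in the 3 h lists, and 613 bp in control replicate 2. At the other end, chromosome 10 from 12441896 to 12442281 was 386 bp wide, with calls of 353 and 382 bp in the 12 h lists, 341 and 366 bp in the 3 h lists, and 377 bp in control replicate 1. Its folds were 4.54 and 4.53 in the 12 h lists, 4.56 and 5.21 in the 3 h lists, and 4.95 in control, so neither width nor fold separated the groups there. Chromosome 1 from 10726973 to 10727451, at 479 bp, showed folds of 5.01 and 4.61 in the 12 h lists, 3.77 and 3.12 in the 3 h lists, and 4.13 in control replicate 1.

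Infestation for 12 h and for 3 h was a contrast that the choice of regions did not use, since all 4 infested lists had to call each region. Median called width was 730.25 ± 20.2 bp for the 12 h lists, against 705.25 ± 23.7 bp for the 3 h lists (SD, n = 2 libraries each), a log2 ratio of 0.05. The libraries of the times overlapped, and the difference of the means was close to the SDs (two-sided exact permutation test, p = 0.667; the smallest p that 2 against 2 libraries allow is 0.333). For regions called in the infested lists alone the log2 ratio was 0.13 (exact permutation p = 0.333) and for regions called in all 6 lists −0.01 (exact permutation p = 1). None of these 3 comparisons could reach 0.05, and with Benjamini-Hochberg adjustment over them the adjusted p was 1 for the single-control regions.

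To compare strength, the fold was ranked within each infested list over the same 6271 regions. In 272 single-control regions (17.6%) both 12 h ranks lay above both 3 h ranks, against 17.6% of all 6271 regions. In 287 (18.6%) both 12 h ranks lay below both 3 h ranks, against 18.5% of all regions. Called width was greater in both 12 h lists than in both 3 h lists in 336 single-control regions (21.7%), against 22.1% of all regions, and smaller in 244 (15.8%), against 15.1%. These shares were close to the background, so they give no result about single-control regions as a class.

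**Figure D5:**
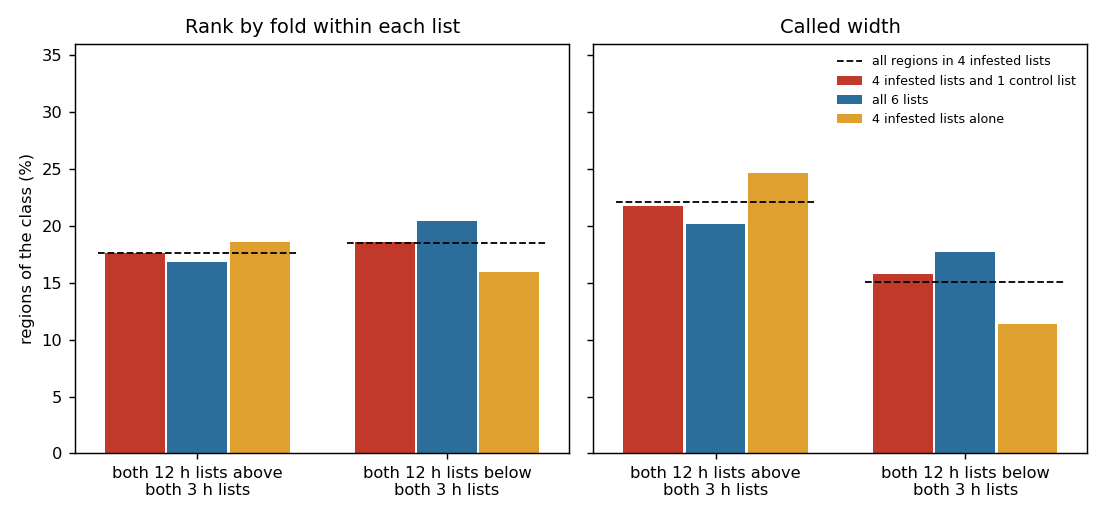
Share of regions (vertical axis, %) whose values in both 12 h lists lie above or below those in both 3 h lists, by rank of fold within each list (left) and by called width (right), with the share over all 6271 regions called in the 4 infested lists as a dashed line. Single-control regions lie close to the line, at 17.6% and 18.6% for rank and 21.7% and 15.8% for width.

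Single regions differed more between the times. The largest lead of 12 h ranks over 3 h ranks was at chromosome 9 from 15572925 to 15573626, where the folds were 6.52 and 5.75 in the 12 h lists and 3.14 and 3.60 in the 3 h lists. Its ranks were at percentiles 94.3 and 85.1 in the 12 h lists and 10.4 and 27.1 in the 3 h lists, and its control replicate 1 fold was 3.43. Chromosome 3 from 28116707 to 28117538 showed folds of 6.07 and 5.29 in the 12 h lists, 3.29 and 3.38 in the 3 h lists, and 2.68 in control replicate 1. Chromosome 2 from 12620349 to 12621261 had 5.73 and 5.11 in the 12 h lists, 2.88 and 3.30 in the 3 h lists, and 2.80 in control replicate 1. Its summits held 15 and 14 fragments at 12 h and 9 and 12 in the 3 h lists, where the lowest called was 8. At these 3 regions the 3 h folds lay nearer to the control fold than the 12 h folds did. At chromosome 6 from 2710250 to 2711117 the folds were 4.96 and 5.03 in the 12 h lists, 3.35 and 3.23 in the 3 h lists, and 4.69 in control replicate 2, so the 3 h values were the low ones.

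In the other direction, chromosome 8 from 8424409 to 8425354 showed folds of 3.62 and 2.88 in the 12 h lists, 5.44 and 5.13 in the 3 h lists, and 3.13 in control replicate 1. Its summits held 8 and 6 fragments at 12 h, 16 and 16 in the 3 h lists, and 11 in control. Chromosome 12 from 26912720 to 26914462 showed folds of 3.87 and 3.80 in the 12 h lists, 6.43 and 5.55 in the 3 h lists, and 3.33 in control replicate 2. At both regions the 12 h folds were near the control fold and the 3 h folds were above it. Chromosome 4 from 19378391 to 19379372 had 3.77 and 4.002 in the 12 h lists, 5.72 and 5.75 in the 3 h lists, and 4.84 in control replicate 2. Chromosome 7 from 23389355 to 23389998 had 3.21 and 2.88 in the 12 h lists, 5.08 and 4.52 in the 3 h lists, and 3.99 in control replicate 2. In these last regions the control fold lay between the times. The chromosome 7 summits held 7 and 6 fragments at 12 h, where the lowest called was 6, and 17 and 14 in the 3 h lists. All 8 regions named for either direction were picked as the extremes of 1546 regions, and no test was made of any of them.

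Single-control regions were spread along all chromosomes. They made up 21.1% of the regions called in the 4 infested lists on chromosome 10, the lowest share, and 27.9% on chromosome 11, the highest. Control replicate 2 supplied 58.1% of the control calls on chromosome 5 and 65.0% on chromosome 1, and supplied the larger part on every chromosome. Of 379 windows of 1 Mb, 362 held a single-control region, with a median of 4. Chromosome 1 from 39000001 to 40000000 held the most, 12 of the 24 regions called in the 4 infested lists, of which 7 had the call in control replicate 2 and 5 in control replicate 1. The windows of chromosome 3 from 7000001 to 8000000 and from 8000001 to 9000000 and that of chromosome 5 from 24000001 to 25000000 held 11 each, of 31, 36 and 27 regions. In the first 2 Mb of chromosomes 11 and 12, which share a duplicated segment where short reads can be hard to place, 7 of 33 and 11 of 35 regions were single-control regions.

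Their distances to other control calls were much like those of regions called in the infested lists alone. The nearest other region called in control replicate 2 was a median 23.6 kb away, and the nearest in control replicate 1 a median 26.8 kb away. For regions called in the infested lists alone these distances were 24.3 and 27.9 kb. Of the 587 regions with a call in control replicate 1, 6 (1.02%) had a region of control replicate 2 within 1 kb, and of the 959 with a call in control replicate 2, 6 (0.626%) had a region of control replicate 1 within 1 kb. Such a close call was rare in the other classes too. Regions called in the infested lists alone had a region of control replicate 2 within 1 kb in 0.580% and of control replicate 1 in 0.919%. For regions called in all 6 lists these shares were 1.17% and 1.54%. In the order of regions called in the 4 infested lists along a chromosome, 893 of the single-control regions stood alone and the others formed runs. The longest runs had 6 regions in a row, on chromosome 9 from 21310189 to 21542944, with 3 calls in each control replicate, and on chromosome 11 from 17902105 to 18465729, with 4 in control replicate 2 and 2 in control replicate 1.

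Within the single-control regions, folds in pairs of lists had a rank correlation of 0.46 for the 12 h replicates, 0.48 for the 3 h replicates and 0.43 to 0.45 between 12 h and 3 h lists (Spearman's rho across 1546 regions, which are not independent replicates). Between infested lists and control replicate 2 it was 0.28 to 0.31 across 959 regions, and with control replicate 1 it was 0.27 to 0.30 across 587. At regions called in all 6 lists the values were 0.62 and 0.64 for the infested replicates, 0.40 to 0.48 with control replicate 2 and 0.38 to 0.44 with control replicate 1. Between the 2 control replicates the value there was 0.50, below that of the infested replicates. Folds spanned less among single-control regions, from 2.34 to 9.04 in 12 h replicate 1 against 2.26 to 18.6 among regions called in all 6 lists. The points of a pair of lists share their local sequence and background.

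When every list was shortened to its 5079 best peaks by −log10 q, so that all lists were of the length of the shorter control list, 1445 of the 1546 regions (93.5%) kept their control call. Of the 1546, 327 (21.2%) kept the control call and all 4 infested calls, 375 (24.3%) kept it with 3 infested calls, 332 (21.5%) with 2, 266 (17.2%) with 1 and 145 (9.38%) with none. The shortening itself fixes which calls go, since the control replicate 1 list already had 5079 peaks and lost none, that of control replicate 2 had 5577 and the infested lists had 11690 to 13949. In lists merged anew, 359 regions followed the rule.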

How the data were processed

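H3K9ac was profiled by CUT&Tag in rice leaf nuclei (2 libraries each at 12 h, at 3 h and in control). The submitters' processing notes name build IRGSP-1.0 and, in no stated order, the tools MACS2 2.1.0, Bowtie 1.1.2, Trimmomatic 0.33 and bcl2fastq 2.17. Their settings, the handling of duplicate reads and whether an input library was used are not stated in the labels. The authors deposited 1 peak list per library, with the fold of the summit (a ratio), its −log10 p and −log10 q, a whole-number score, which was not used, and the summit position, which is neither a level nor a test. The lowest −log10 q of any list was 1.30, a q-value threshold of 0.05. Positions are 1-based.

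Intervals were merged when they overlapped by at least 1 bp. Where a list gave a region several summits, the highest fold stood for it, and widths of separate intervals were summed. Coverage t and local background c were solved from the deposited fold, (t + 1) / (c + 1), and the Poisson tail; the −log10 p matched within 0.001 for 100% of peaks. PCR copies are not independent molecules, so intervals cover counting error only. Python 3.11.15, pandas 2.3.3, NumPy 2.4.6 and SciPy 1.17.1 were used, and the steps were checked on simulated lists. The regions named are the extremes of fold, width, summit number, control q and 12 h against 3 h rank. The regions and measures were chosen with earlier results of these data known. Gene names, gene starts and base composition were not analysed here, because the annotation at hand is of another assembly.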

Additional observations from a re-analysis of the deposited data

How the results depend on the processing

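The number of single-control regions, 1546, stayed between 1170 and 1550 when overlap had to reach 100 bp, gaps of 100 bp were bridged, −log10 q had to reach 2, the control call had to overlap the stretch shared by the infested lists or a call had to cover 50% of the region. It was 495 at a −log10 q of at least 5 and 359 with lists of equal length, settings that remove peaks by construction. Without each infested replicate in turn it was 1626 to 1702. This count can only rise, since regions that missed just the dropped call join the 1546. The rule needs both controls, so none was left out. The share of control calls in control replicate 1, 38.0%, was 35.4% at −log10 q of at least 5, 35.5% when a call had to cover 50%, and 37.7 to 38.5% without each infested replicate. The share of regions with 1 summit in every list was 64.6% at −log10 q of at least 5, 69.6% with lists of equal length, 55.5% when a call had to cover 50%, and 64.9 to 67.7% without each infested replicate, when fewer lists can show a second summit. With the cover of 50%, 615 of 1170 regions were among the 1546.

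The log2 ratio of called width, 12 h over 3 h, reversed to −0.0028 when a call had to cover 50% (exact permutation p = 1; the cause was not tested), was 0.11 with lists of equal length (exact permutation p = 0.333), the largest of the settings run, and was 0.02 to 0.08 without each infested replicate. Paired by replicate number, the 2 log2 ratios were 0.057 and 0.044, with a mean of 0.0504. An exact test that flips the signs of the pairs gave p = 0.5, the smallest that 2 pairs allow, so it cannot decide. The numbers share no batch in the labels, and deviations of same-numbered lists had a correlation of −0.0012 over 6271 regions. Counts of regions ranked higher or lower in both 12 h lists were 272 and 287; they were 505 to 552 and 505 to 556 without each infested replicate, chosen after the data were seen, since 3 lists overlap less often than 4. Gene starts and GC content, which were planned, were not run. Coverage of 13 to 18 fragments per summit limits the precision of single regions.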
